A study of Mus musculus with 24 samples.

Results

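The cytotoxic granule genes were examined as 9 genes of the single-cell count matrix, taken by their symbols: the granzymes Gzma, Gzmb, Gzmc, Gzmk and Gzmm, the pore-forming protein Prf1, the granule proteoglycan Srgn, the granule membrane protein Nkg7 and the cysteine protease Ctsw. All 9 had a row among the 24447 genes. The cells were NK1.1+CD3e+ lymphocytes sorted from the livers of young adult C57BL/6 mice and picked by hand, with 623 cells of wild type (WT) animals, 725 cells of Jα18-/- animals and 387 cells of CD1d-/- animals in the matrix. Loss of the Jα18 segment removes the invariant receptor chain and with it type I NKT cells. Loss of CD1d removes the presenting molecule of lipid antigens, on which type I cells and type II cells both depend. The labels give the strain of all animals as C57BL/6, no treatment is named, and all cells passed the same NK1.1 gate, so that NK1.1-negative T cells were not sampled. The labels list 8 libraries of each genotype, but the cell names give the genotype only, so each genotype was 1 pool here and genotypes could not be tested against each other.

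Cytotoxic lymphocytes kill by releasing granules into the contact zone with a target cell. Perforin forms pores in the target membrane, granzymes are serine proteases that enter through them and cleave substrates that start cell death, and serglycin, encoded by Srgn, is the proteoglycan core on which granzymes and perforin are stored. Nkg7 is a granule membrane protein that takes part in degranulation, and Ctsw encodes cathepsin W, a protease found in cytotoxic T and NK cells. CD8α marks one branch of liver NK1.1+ T cells, and the Ly49 receptors are lectin-like receptors for MHC class I molecules that NK cells and some T cells carry.

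The promoters of the 2 granzyme genes whose levels differed between subsets, and that of Prf1, whose product delivers them, are shown as RefSeq sequence of build GRCm38.p6, each as the 250 bases before the annotated transcription start in the direction of transcription. The Gzma window lies on the minus strand at chr13:113100982-113101231, the Gzmb window on the minus strand at chr14:56262335-56262584 and the Prf1 window on the plus strand at chr10:61297586-61297835. Capitals mark exact matches, on either strand, to a T-box motif (AGGTGT, reverse ACACCT), a Runx motif (TGTGGT, reverse ACCACA) and a cAMP response element core (TGACGT, reverse ACGTCA), none of which overlap in these windows.
Gzma: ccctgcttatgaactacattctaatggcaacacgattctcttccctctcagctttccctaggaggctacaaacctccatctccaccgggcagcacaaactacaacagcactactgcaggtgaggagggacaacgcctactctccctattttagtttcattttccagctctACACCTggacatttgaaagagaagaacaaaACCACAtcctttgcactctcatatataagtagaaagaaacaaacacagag
Gzmb: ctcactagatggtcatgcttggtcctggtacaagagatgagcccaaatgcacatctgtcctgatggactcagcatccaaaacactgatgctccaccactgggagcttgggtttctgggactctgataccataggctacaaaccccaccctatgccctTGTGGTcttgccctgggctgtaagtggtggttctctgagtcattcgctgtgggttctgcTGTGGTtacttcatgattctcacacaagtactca
Prf1: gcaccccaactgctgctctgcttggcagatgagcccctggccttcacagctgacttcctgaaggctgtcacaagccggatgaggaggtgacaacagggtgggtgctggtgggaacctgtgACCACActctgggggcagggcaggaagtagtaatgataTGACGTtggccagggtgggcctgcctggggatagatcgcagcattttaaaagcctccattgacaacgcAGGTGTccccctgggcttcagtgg
The Gzma window held a T-box match 80 bases and a Runx match 50 bases before the start, the Gzmb window held Runx matches 93 and 34 bases before it, and the Prf1 window held a T-box match at 24, a Runx match at 130 and a cAMP response element core at 92 bases. Among 27025 promoters of the same length, 3241 held the T-box letters, 3832 (14.2%) the Runx letters and 1773 (6.56%) the cAMP response element core, and a match is a description of the letters only.

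In the mm9 genome that the authors mapped to, Gzma and Gzmk lay 70.6 kb apart on chromosome 13 and Gzmb and Gzmc 24.2 kb apart on chromosome 14. Gzma spanned bases 113884033 to 113891187, Gzmb bases 56877693 to 56881097 and Prf1, on chromosome 10, bases 60760584 to 60767011. Of the member transcripts, Gzmc shared 50-base stretches with its neighbours Gzmd, Gzme and Gzmg (3.95% of its stretches), so its counts are given as uncertain. The other 8 transcripts shared none. How reads of Gzmc were mapped was not tested.

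Cells were placed in 5 subsets by whether they had at least 1 UMI (unique molecular identifier, 1 counted molecule) of Cd8a, of Cd4 and of any of the Ly49 genes Klra1, Klra5, Klra7 and Klra9. Cd8a+Ly49+ cells numbered 40 in WT, 239 in Jα18-/- and 208 in CD1d-/- mice, and Cd8a+Ly49- cells 23, 14 and 23 in the same order. Cd4+ cells numbered 188, 104 and 8, cells without Cd8a and Cd4 (double negative, DN) with a Ly49 gene 116, 246 and 112, and DN cells without a Ly49 gene 222, 51 and 33. The 108 cells with both Cd8a and Cd4 were left out of these subsets. Median depth ran from 5896 UMIs in CD1d-/- DN Ly49- cells to 67506 UMIs in Jα18-/- Cd8a+Ly49+ cells, and detection of a gene rises with depth, so a shallow cell is more often placed among the negative subsets. A UMI of Cd3e, Cd3d or Cd3g was found in 1732 of 1735 cells, or 99.83%, and one of Klrb1c, which encodes NK1.1, in 93.6% of cells.

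The members differed widely in how many cells held a UMI. Nkg7 had a UMI in every cell of the 3 pools, Ctsw in 97.75% of WT, 99.45% of Jα18-/- and 95.87% of CD1d-/- cells, and Srgn in 98.39%, 97.66% and 96.38% of them. Gzma was found in 59.55%, 88.14% and 80.88% of cells and Gzmb in 58.27%, 82.62% and 87.08%. Prf1 was found in 21.03%, 27.86% and 32.82% of cells and Gzmc in 4.33%, 8.83% and 16.8%. Gzmm was found in 14, 14 and 6 cells of the WT, Jα18-/- and CD1d-/- pools. Gzmk, the neighbour of Gzma, was at 0 in all 623 WT cells, which allows a share of up to 0.482% of cells with a UMI, and in all 725 Jα18-/- cells, which allows up to 0.414%. The CD1d-/- pool held 5 Gzmk UMIs in 2 cells, both Cd8a+Ly49+.

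Gzma stood highest in Cd8a+Ly49+ cells. Summed over the cells of a subset, its level there was 4990 CPM (UMIs per 1000000 UMIs of the sum) in WT, 2213 CPM in Jα18-/- and 4039 CPM in CD1d-/- mice. Scaled by TMM, its mean there was 3796 ± 1643 CPM (SD, n = 3 pools), against 1057 ± 381 CPM in DN Ly49+ and 257 ± 379 CPM in DN Ly49- cells. In DN Ly49+ cells the level by pool was 683, 1098 and 1428 CPM in the same order, in Cd8a+Ly49- cells 350, 109 and 811 CPM, and in Cd4+ cells 103, 418 and 217 CPM. DN Ly49- cells held 34.1 CPM in WT, 41.7 CPM in Jα18-/- and 700.1 CPM in CD1d-/- mice. The 3 Cd8a+Ly49+ sums lay above all 12 sums of the other subsets, a pattern that 0.428% of the 9341 genes tested showed and that no other member showed. The high CD1d-/- value in DN Ly49- cells came from shallow cells: the 23 cells of this sum with under 10000 UMIs held 91.8% of its Gzma UMIs, and 1 cell held 37.6%. Single cells also weighed on other sums, since the cell with the most Gzma held 35.1% of the UMIs of the WT Cd8a+Ly49+ sum, which was 3459 CPM without it.

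Gzmb spanned a smaller range. Its level in Cd8a+Ly49+ cells was 4507 CPM in WT, 1423 CPM in Jα18-/- and 3184 CPM in CD1d-/- mice. In Cd8a+Ly49- cells it was 854, 426 and 1625 CPM, in DN Ly49+ cells 599, 565 and 1651 CPM, in Cd4+ cells 366, 570 and 603 CPM, and in DN Ly49- cells 414, 275 and 896 CPM. Within each pool the Cd8a+Ly49+ sum was the highest of the 5, with a mean of 3097 ± 1748 CPM (TMM, SD, n = 3 pools) against 528 ± 319 CPM in DN Ly49- cells, and across pools the sums overlapped, since the Jα18-/- Cd8a+Ly49+ sum lay below the CD1d-/- Cd8a+Ly49- and DN Ly49+ sums.

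**Figure D1:**
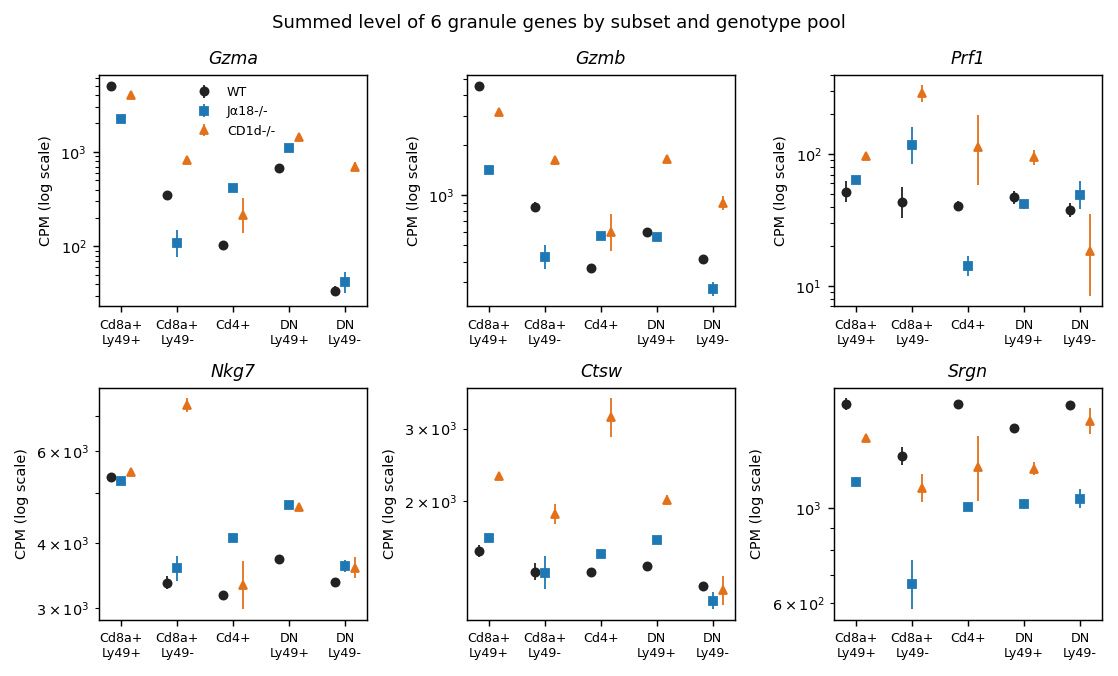
Summed level in CPM (log axis, a separate range for each gene) of 6 granule genes in the 5 subsets, with 1 point for each genotype pool and exact Poisson 95% intervals that cover counting error only. Gzma in Cd8a+Ly49+ cells sits between 2213 and 4990 CPM, above every other sum, whereas Nkg7 stays between 3177 and 7363 CPM in all sums.

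The comparison of Ly49+ with Ly49- subsets asked whether the granule genes differed with Ly49 among Cd8a+ and DN cells alike. Gzma was higher in Ly49+ cells by 3.10 on the log2 scale (SE 0.45, adjusted p = 0.000137, by the quasi-likelihood test of edgeR, Benjamini-Hochberg adjusted over 9341 genes) and Gzmb by 1.26 (SE 0.24, adjusted p = 0.00478). These were 2 of the 8 members tested (Gzmk was too low to test), beside 0.31% of all genes tested (29 of 9341) and 0.289% in the higher direction. The median gene was 0.20 higher on the same scale. Within the pools the log2 difference of Gzma was 4.06 in WT, 4.33 in Jα18-/- and 1.66 in CD1d-/- mice, and that of Gzmb was 1.46, 1.2 and 0.91. No member had all Ly49+ sums above all Ly49- sums, as 0.632% of genes had, and for Gzma the CD1d-/- DN Ly49- sum (700.1 CPM) lay above the WT DN Ly49+ sum (683 CPM). Within pools the difference was positive in all 6 pairs of a Ly49+ and a Ly49- sum for both genes. The replicates of this test are the 3 pools, which are mice of different genotypes. The fit holds a term for the pool, so differences in level between pools do not enter its error. The p-values set the differences between subsets against a spread from pool to pool, with 1 spread shared by all 5 subsets. The fit draws this spread towards a trend over all genes. The p-values thus do not rest on the variation of the gene itself over the 3 pools alone. In 5 of the 6 pairs the Ly49+ cells were deeper by the median (in WT Cd8a+ cells the medians were 46271 UMIs with and 53772 UMIs without Ly49), and with every cell thinned to 10000 UMIs the log2 differences were 2.69 for Gzma and 1.41 for Gzmb.

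The other 6 members tested did not pass in that comparison. Gzmm had the largest value among them, 3.85 (SE 1.68, adjusted p = 0.447 in edgeR), and its sums rested on few cells: 1 cell held 215 of the 252 UMIs of the WT Cd8a+Ly49+ sum and 1 cell held 106 of the 110 UMIs of the CD1d-/- DN Ly49+ sum. The log2 differences were 0.28 for Ctsw (SE 0.14), 0.20 for Nkg7 (SE 0.13), 0.09 for Srgn (SE 0.15), -0.12 for Gzmc (SE 0.91) and -0.27 for Prf1 (SE 0.49). The median over the 8 members was 0.24, against 0.20 over all genes.

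The comparison of Cd8a+ with Cd8a- subsets asked the same of Cd8a among cells with and without Ly49. Gzmb was higher in Cd8a+ cells by 1.40 on the log2 scale (SE 0.24, adjusted p = 0.00924 in edgeR), 1 of 8 members tested beside 0.0535% of all genes (5 of 9341, all higher). Its log2 difference was 2.10 in WT, 1.03 in Jα18-/- and 0.90 in CD1d-/- mice. Gzma had a larger value, 1.66, with a larger error (SE 0.43, adjusted p = 0.474 in edgeR) and differences of 3.23, 1.25 and 0.86 in the same order of pools. Both genes were higher in the Cd8a+ sum in all 6 pairs. For Gzmb, 1 cell held 72.4% of the UMIs of the WT Cd8a+Ly49- sum and 1 cell 69.6% of the Jα18-/- one. Without these cells the 2 sums were 258 and 144 CPM. They then lay below the DN Ly49- sums of the same pools without their own top cells, 353 and 219 CPM. Without the WT pool the value of Gzmb was 0.95 (adjusted p = 0.087 in edgeR), so its call rested on that pool, and with all pools the call was also lost with no term for the pool (1.35, adjusted p = 0.475 in edgeR) and with 2 UMIs needed for detection (1.26, adjusted p = 0.0525 in edgeR). The Gzma value passed the threshold when the Jα18-/- pool (1.82) or that of CD1d-/- mice (2.43) was left out, while without the WT pool it was 0.83 (adjusted p = 0.239 in edgeR), and it was 2.47 when cells under 10000 UMIs, which the study's stated filter leaves out, were dropped (adjusted p = 0.000513 in edgeR).

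The log2 difference of Prf1 was 1.0 (SE 0.50, adjusted p = 0.805 in edgeR) and that of Nkg7 0.40 (SE 0.13, adjusted p = 0.63 in edgeR), and neither passed. Ctsw was at 0.26 (SE 0.14), Srgn at -0.11 (SE 0.15), Gzmc at 2.09 (SE 0.90) and Gzmm at 2.09 (SE 1.75), and none of these passed. The median over the 8 members was 1.2 on the log2 scale, against -0.08 over all genes tested.

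**Figure D2:**
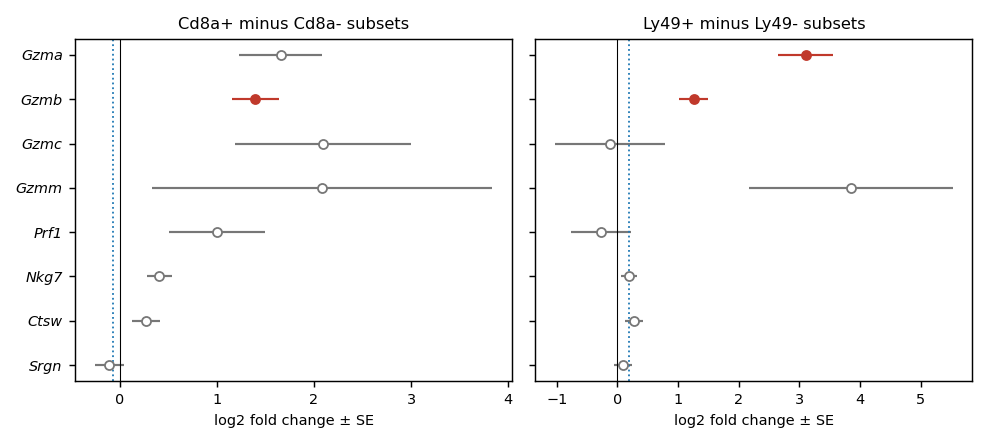
Log2 fold change with its standard error (bars) of the 8 members tested in the Cd8a and the Ly49 comparison, filled red where the adjusted p was under 0.05, with a dotted line at the median of all genes. Gzmb is filled in both panels (1.40 and 1.26) and Gzma in the Ly49 panel (3.10).

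Whether the difference with Cd8a was itself different between Ly49+ and Ly49- cells was tested as an interaction: 0 of 8 members passed, beside 0.0107% of all genes. 1 member (Srgn, 0.63, SE 0.29) had an unadjusted p under 0.05. Among all genes, 532 had one together with a fold change past the limit set for calls. With DESeq2 in place of edgeR, 0 members passed as well. The Gzmb interaction was 0.88 (SE 0.47), with pool values of 1.82 in WT, 0.56 in Jα18-/- and 0.00 in CD1d-/- mice. For Cd4+ against DN Ly49- cells, 0 of 8 members passed, beside 0.0535% of all genes, and 0 passed with DESeq2. 1 member, Ctsw, had an unadjusted p under 0.05 there (0.55, SE 0.21). With the same fold change limit, 295 genes in all did. Gzma was at 0.85 there (SE 0.65), and with cells under 10000 UMIs dropped it was at 2.98 and passed (adjusted p = 0.013 in edgeR). That fit held no CD1d-/- Cd4+ sum, since 2 such cells were left and a sum needed 5. With all cells but without the CD1d-/- Cd4+ sum, Gzma was at 1.59 and did not pass. In the Cd4+ sums 1 cell held 50.9% of the Gzma UMIs in WT and 44.9% in Jα18-/- mice. The Cd4+ cells were not split by Ly49, and 37.8% of those in WT, 85.6% of those in Jα18-/- and 4 of 8 of those in CD1d-/- mice had a Ly49 UMI.

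In Cd8a+Ly49+ cells nearly all Gzma was carried by a part of the cells. Each cell was thinned to 10000 UMIs, which left out 353 shallower cells, and a cell with 10 or more UMIs of a granzyme was called high, a limit chosen after the values had been seen. The subsets stayed as set at the full depth of the cells. Of Cd8a+Ly49+ cells, 48.65% were high in Gzma in WT (18 of 37, exact Clopper-Pearson 95% interval 31.9 to 65.6%), 23.96% in Jα18-/- (52 of 217, 18.4 to 30.2%) and 41.1% in CD1d-/- mice (58 of 141, 32.9 to 49.7%). These high cells held 98.3%, 95.9% and 97.5% of the Gzma UMIs of their subset. Their median level was 52, 66.5 and 80.5 UMIs of 10000 in the same order. The mean of the remaining cells was 1.37, 1.21 and 1.81. The high cells of the DN Ly49+ subset held similar shares of its Gzma UMIs, 92.9%, 93.2% and 96.0%. In Cd4+ cells the shares were 69.1% in WT and 79.5% in Jα18-/- mice.

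In the other subsets the share of Gzma-high cells was smaller or 0. Among DN Ly49+ cells they made up 8.74% in WT, 13.0% in Jα18-/- and 24.6% in CD1d-/- mice. Among Cd4+ cells they made up 2.22% (4 of 180) in WT and 3.19% (3 of 94) in Jα18-/- mice, and only 2 CD1d-/- Cd4+ cells were deep enough to read. Of Cd8a+Ly49- cells, 2 of 20 in WT, 0 of 8 in Jα18-/- and 2 of 15 in CD1d-/- mice were high. Among DN Ly49- cells, 0 of 149 WT cells were high, which allows a share of up to 2.01%, as were 0 of 36 Jα18-/- cells, which allows up to 8.33%, and 0 of 10 CD1d-/- cells, which allows up to 30%. Of the shallower DN Ly49- cells that this leaves out, 4 of 73 in WT, 0 of 15 in Jα18-/- and 3 of 23 in CD1d-/- mice had 10 or more Gzma UMIs per 10000 of their own.

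A low level of Gzma, 1 to 9 UMIs of 10000, was found in all subsets read. In DN Ly49- cells it was seen in 24.8% of WT, 38.9% of Jα18-/- and 3 of 10 CD1d-/- cells. Over all cells that were not high, the mean was 0.423 UMIs of 10000 in WT, 0.96 in Jα18-/- and 1.52 in CD1d-/- mice, which followed the order of the whole pools' Gzma levels of 581, 1295 and 3309 CPM. No cell type known to lack Gzma was in the sort, and the part of free RNA in this low level was not tested, so shares of cells with any UMI are not read as shares of expressing cells.

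Gzmb-high cells were found in every subset. They made up 62.2% (23 of 37, 44.8 to 77.5%) of WT, 43.3% (94 of 217, 36.6 to 50.2%) of Jα18-/- and 73.8% (104 of 141, 65.7 to 80.8%) of CD1d-/- Cd8a+Ly49+ cells. In DN Ly49+ cells they made up 20.4%, 17.8% and 50.9% in the same order, and in DN Ly49- cells 13.4% (20 of 149), 11.1% (4 of 36) and 1 of 10. Of Cd4+ cells, 9.44% in WT and 19.1% in Jα18-/- mice were high in Gzmb. Prf1 reached 10 UMIs of 10000 in 2 of 523 WT, 3 of 632 Jα18-/- and 5 of 227 CD1d-/- cells.

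**Figure D3:**
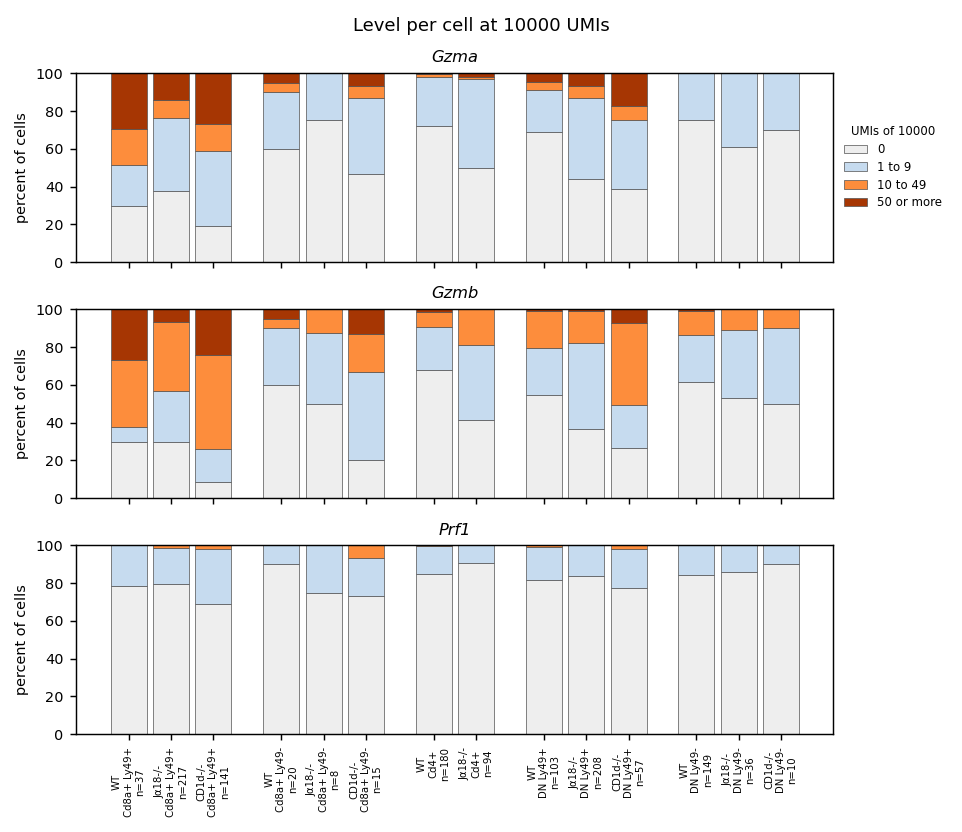
Percent of cells with 0, 1 to 9, 10 to 49, and 50 or more UMIs of Gzma, Gzmb and Prf1 after each cell was thinned to 10000 UMIs, by subset and genotype (n is the number of cells, and sums of fewer than 5 cells are not drawn). Dark segments of Gzma appear in Cd8a+Ly49+ and DN Ly49+ cells and not in the 149, 36 and 10 DN Ly49- cells.

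With 1 limit of 10 UMIs for both genes, cells high in Gzma were mostly high in Gzmb too. Among Cd8a+Ly49+ cells, 16 of 18 Gzma-high cells of WT (88.9%), 45 of 52 of Jα18-/- (86.5%) and 53 of 58 of CD1d-/- mice (91.4%) were also Gzmb-high. Of the Gzmb-high cells, 16 of 23 (69.6%), 45 of 94 (47.9%) and 53 of 104 (50.96%) were Gzma-high. In DN Ly49+ cells the 2 shares were 77.8% and 33.3% in WT, 51.9% and 37.8% in Jα18-/- and 92.9% and 44.8% in CD1d-/- mice. The 25 DN Ly49- cells high in Gzmb, 20 in WT, 4 in Jα18-/- and 1 in CD1d-/- mice, were below the limit for Gzma, as was every DN Ly49- cell read. This holds for subsets set at full depth. With Cd8a, Cd4 and Ly49 read in the thinned counts, 3 of 265, 2 of 161 and 3 of 33 DN cells without a Ly49 gene were Gzma-high.

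**Figure D4:**
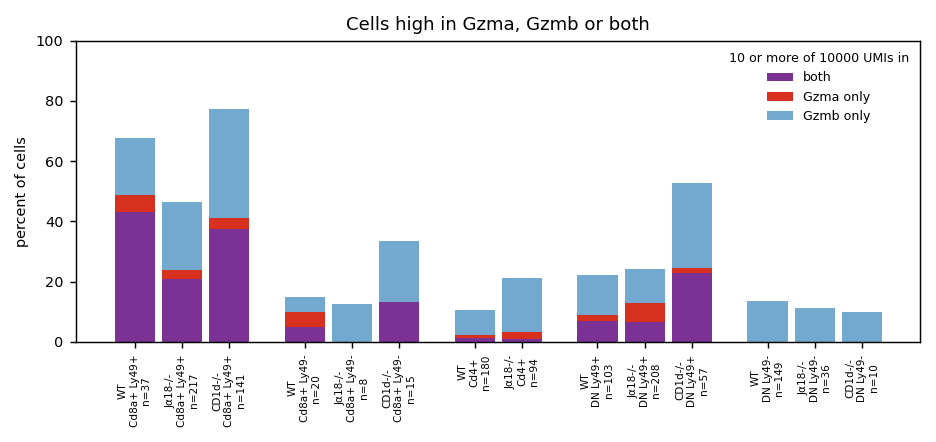
Percent of cells with 10 or more of 10000 UMIs in Gzma and Gzmb (both), in Gzma only or in Gzmb only, by subset and genotype (n is the number of cells). The segment of cells high in Gzma only is small in Cd8a+Ly49+ cells (2, 7 and 5 cells of WT, Jα18-/- and CD1d-/- mice). DN Ly49- cells show Gzmb only, since none of them was high in Gzma.

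In Cd8a+Ly49+ cells the share with a Prf1 UMI was larger among cells high in both granzymes than among cells high in neither in each pool. In cells high in Gzmb only it was 28.6% of 7 cells in WT, 26.5% of 49 in Jα18-/- and 37.3% of 51 in CD1d-/- mice. In WT and CD1d-/- mice this lay above the share in cells high in both. Cells are not replicates, and these shares were not tested. Among Cd8a+Ly49+ cells at 10000 UMIs, a Prf1 UMI was seen in 4 of 16 cells high in both (7.27 to 52.4%) and 1 of 12 cells high in neither (0.211 to 38.5%) in WT, and in 18 of 45 (40.0%, 25.7 to 55.7%) and 11 of 116 (9.48%, 4.83 to 16.3%) in Jα18-/- mice. In CD1d-/- mice the counts were 17 of 53 (32.1%, 19.9 to 46.3%) and 7 of 32 (21.9%, 9.28 to 39.97%). Among DN Ly49+ cells the counts were 3 of 7 and 11 of 80 in WT, 5 of 14 and 19 of 158 in Jα18-/- and, in the opposite direction, 1 of 13 and 5 of 27 in CD1d-/- mice. With all cells counted, the summed Prf1 level did not follow the granzymes across subsets. In Cd8a+Ly49+ cells it was 52.0, 63.2 and 96.9 CPM in WT, Jα18-/- and CD1d-/- mice, and in Cd8a+Ly49- cells 43.4, 118 and 289 CPM. In the Cd8a+Ly49- sums 1 cell held 69.6%, 90.2% and 71.3% of the Prf1 UMIs, and without it the levels were 14.4, 14.3 and 88.2 CPM. In DN Ly49- cells Prf1 was at 37.9, 49.3 and 18.4 CPM and in Cd4+ cells at 40.4, 14.2 and 113 CPM.

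Nkg7 was lower in cells low in both granzymes inside the Cd8a+Ly49+ subset. Its median was 56.5 UMIs of 10000 in WT cells high in both granzymes, 39 in cells high in Gzmb only and 30.5 in cells high in neither. The same medians were 64, 47 and 38.5 in Jα18-/- and 50, 52 and 31 in CD1d-/- mice, so cells high in neither had the lowest median in each pool. Ctsw medians in cells high in both and in neither were 18.5 and 5.5 in WT, 19 and 12.5 in Jα18-/- and 22 and 20 in CD1d-/- mice. Srgn medians were 21 and 10 in WT, 9 and 9 in Jα18-/- and 11 and 14 in CD1d-/- mice, with no common direction. In DN Ly49+ cells, too, cells high in neither had the lowest Nkg7 median in each pool, 31.5, 34.5 and 35. The 7, 14 and 13 DN Ly49+ cells high in both had 36, 52.5 and 56. Ctsw medians in those high in both were 12, 23 and 28, and in those high in neither 10, 14 and 13. Cells are not replicates, and no test was made of these medians.

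Across whole subsets these 3 genes spanned a narrower range than the granzymes. Nkg7 ran from 3177 CPM in WT Cd4+ cells to 7363 CPM in CD1d-/- Cd8a+Ly49- cells, where 1 cell held 37.8% of the UMIs. Ctsw ran from 1145 CPM in Jα18-/- DN Ly49- cells to 3193 CPM in the 8 CD1d-/- Cd4+ cells, where 1 cell held 55.2%. Srgn ran from 665 CPM in Jα18-/- Cd8a+Ly49- cells to 1745 CPM in WT Cd8a+Ly49+ cells.

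The granzymes Gzmc and Gzmm were low and uneven. Gzmc was at 19.4, 11.02 and 68.5 CPM in Cd8a+Ly49+ cells of WT, Jα18-/- and CD1d-/- mice, in 4 of 40, 22 of 239 and 50 of 208 cells. In CD1d-/- Cd4+ and DN Ly49- cells it was at 0 in 8 and 33 cells, which allows shares of up to 37.5% and 9.09%. Gzmm was at 111 CPM in WT Cd8a+Ly49+ cells and 17.8 CPM without its top cell, and at 1.30 and 0.371 CPM in those of Jα18-/- and CD1d-/- mice. In CD1d-/- DN Ly49+ cells it was at 44.0 CPM, and 1.64 CPM without the top cell.

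The share of granzyme-high cells was larger in cells with more Ly49 genes. Counting Cd8a, Cd4 and the 4 Ly49 genes in the same 10000 UMIs, Cd8a+ cells with 0, 1, 2 and 3 Ly49 genes were Gzma-high in 1 of 6, 5 of 11, 7 of 10 and 5 of 6 cells in WT. In Jα18-/- mice the shares were 16.7%, 22.6%, 32.4% and 48.4% of 18, 31, 37 and 31 cells, and in CD1d-/- mice 20%, 33.3%, 48.6% and 66.7% of 20, 36, 35 and 12 cells. All 6 Jα18-/- and all 6 CD1d-/- Cd8a+ cells with the 4 genes were Gzma-high. DN cells followed the same order at lower shares: 1.13%, 4.69%, 31.2% and 71.4% in WT, 1.24%, 7.64%, 18.6% and 40.0% in Jα18-/- and 9.09%, 27.0%, 27.6% and 38.5% in CD1d-/- mice. For Gzmb the shares in Cd8a+ cells with 0 and 3 Ly49 genes were 1 of 6 and 6 of 6 in WT, 27.8% and 87.1% in Jα18-/- and 10 of 20 and 12 of 12 in CD1d-/- mice. The order was broken for Gzmb in Jα18-/- DN cells, where the shares were 17.4%, 18.5%, 12.8% and 46.7%, and in CD1d-/- DN cells, where they were 24.2%, 45.9%, 62.1% and 61.5%. These shares describe cells of 1 pool each and were not tested, and the bins of WT Cd8a+ cells hold few cells.

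**Figure D5:**
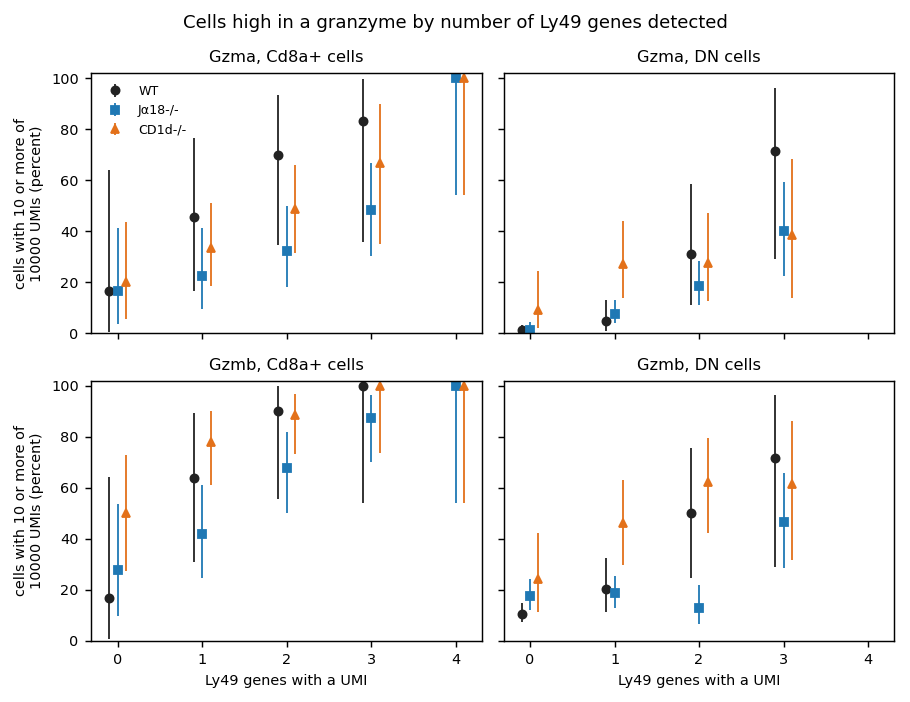
Percent of cells with 10 or more of 10000 UMIs of Gzma (top) or Gzmb (bottom) by the number of the 4 Ly49 genes with a UMI, for Cd8a+ and DN cells of each genotype, with exact 95% binomial intervals (bins of fewer than 5 cells are not drawn). In Cd8a+ cells the Gzma shares go from 16.7 to 83.3% in WT, 16.7 to 48.4% in Jα18-/- and 20 to 66.7% in CD1d-/- mice between 0 and 3 Ly49 genes.

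Between genotypes, each with 1 pool, the values are given without a test. Of the pairs of sums with enough UMIs to compare, the CD1d-/- level was past 2-fold of the WT level in 15 of 33 pairs of a member and a subset, 13 of them higher, beside 42.2% of all pairs of a gene and a subset past 2-fold and 19.6% higher. Against the Jα18-/- pool it was past 2-fold in 13 of 32 pairs, all higher, beside 38.9% past 2-fold and 14.9% higher. The Jα18-/- level was past 2-fold of the WT level in 7 of 33 pairs, 1 of them higher, beside 37.5% past 2-fold and 20.6% higher. In Cd8a+Ly49+ cells the Jα18-/- Gzma level was 0.444 and the Gzmb level 0.316 of the WT level, where 44.4% of genes were past 2-fold, and the CD1d-/- Gzmb level was 2.24 times the Jα18-/- one, where 32.1% were. In DN Ly49+ cells the CD1d-/- Gzmb level was 2.75 times the WT level (34.6% of genes past 2-fold) and 2.92 times the Jα18-/- level (37.5%). The CD1d-/- cells were shallower, and with cells thinned to 10000 UMIs 6 of 23 pairs against WT and 5 of 22 against the Jα18-/- pool were past 2-fold, beside 18.0% and 16.9% of all pairs of a gene and a subset, so the share fell over all genes too. For Jα18-/- over WT the thinned cells gave 6 of 28 pairs (21.4%), beside 12.7% of all pairs. The share of the members was then above that of all genes, whereas with all cells it was below.

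Myeloid transcripts stood higher in the CD1d-/- pool. All 10 genes of the myeloid marker list had a UMI in each pool, and their summed level was 291 CPM in WT, 246 CPM in Jα18-/- and 909 CPM in CD1d-/- mice. Lyz2, which encodes lysozyme of macrophages and granulocytes, was at 77.3, 14.7 and 588 CPM in that order. Over the subset sums the list ran from 138 to 1077 CPM and was highest in the CD1d-/- sums, Clec4f of Kupffer cells was at 0 in most sums, and the lists of neutrophils, hepatocytes, B cells, mast cells and red cells stayed at or under 45.4 CPM. The part of this RNA in the genotype values was not tested. Restricted, as a check chosen after seeing the data, to the 1537 cells with under 0.1% of UMIs in the myeloid and neutrophil lists, the log2 differences for Ly49 were 3.01 for Gzma and 1.56 for Gzmb and that for Cd8a was 1.47 for Gzmb, and each passed the threshold.

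No other gene of the granule pathway passed the test, as few genes of any kind did. The 7 lists used, of other granzymes, proteases that process them, transport and release proteins, granule membrane proteins, granzyme inhibitors, death ligands with cytokines, and transcription factors, held 34 genes, of which 25 were expressed highly enough to test. By edgeR 0 of the 25 passed in any of the 4 comparisons, beside the 0.0535%, 0.31%, 0.0535% and 0.0107% of all genes called for Cd8a, Ly49, Cd4 and the interaction, shares at which a list of this size would hold few calls or none. An unadjusted p under 0.05 was found for 3, 2, 1 and 0 of the 25 in that order. Over the 9341 genes it was counted only with a fold change past the limit set for calls, which left 568, 846, 295 and 532 genes. The counts for the 25 had no such limit, so the shares are not directly comparable. These counts do not show that the genes were at the same level. The 5 other granzymes, Gzmd, Gzme, Gzmf, Gzmg and Gzmn, were all too low to test.

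The genes whose level was most like that of Gzma over the 15 sums, with each pool centred on its own mean, were Tyrobp (Pearson r = 0.95), Cd7 (r = 0.94) and Ccl4 (r = 0.92), among 9340 genes. Tyrobp encodes a signalling adaptor of NK cell receptors, Cd7 a surface receptor of T and NK cells and Ccl4 a chemokine. For Gzmb they were Cd7 (r = 0.92), Tyrobp (r = 0.91) and Cd160 (r = 0.89), the last a receptor of cytotoxic lymphocytes, and Gzma and Gzmb had an r of 0.89 with each other. For Prf1 they were Tmem126b (r = 0.85), Fbxo34 (r = 0.84) and Hspa8 (r = 0.84), while its r was 0.02 with Gzma, 0.20 with Gzmb and -0.60 with Srgn. The 15 sums share depth and the rule that formed the subsets, and these values are descriptions. For Prf1, a single cell held most of the UMIs of each Cd8a+Ly49- sum and of the CD1d-/- Cd4+ sum, so its r values rest partly on single cells.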

How the data were processed

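UMI counts per gene and cell were used as deposited by the authors. Their methods and the submitters' processing notes give trimming with Cutadapt 1.15, alignment of read 1 to mm9 with TopHat2 2.0.12, removal of duplicates by UMI and counting with HTSeq 0.10.0. The stated filter kept cells of 10000 to 600000 UMIs and over 500 genes, yet 353 of the 1735 cells in the deposited counts were below 10000 UMIs, and all cells entered the sums.

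Counts were summed over cells for each of 3 genotype pools and 5 subsets, 15 sums in all. Differences between subsets were fitted with edgeR 4.0.16 (R 4.3.3; TMM, its default filter on low counts, quasi-likelihood test, a term for the pool) over 9341 genes with Benjamini-Hochberg adjustment, with calls where the adjusted p was below 0.05 and the ln fold change beyond 0.25 in size. The fit was tested on simulated data. Cells had been picked by hand, and no doublet caller was run. Genes with fewer than 100 UMIs in a pair of sums were not compared between pools. Alternatives were DESeq2 1.42.0, limma 3.58.1, other filters, thinned cells, a detection limit of 2 UMIs and leaving out each pool. Shares were taken after each cell was thinned to 10000 UMIs. Clopper-Pearson and Poisson 95% intervals, and limits for a count of 0 (3 counts), cover counting error only. The rule for named genes took the 9 members, pathway genes that were called and the 3 genes most like Gzma, Gzmb, Gzmk and Prf1; Gzmk was too low for this. Members, subsets and lists were chosen with earlier results of these data known.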

Additional observations from a re-analysis of the deposited data

Results flagged for a closer look

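For 4 member genes the pools moved in opposite directions, by more than 1 on the log2 scale, in the same comparison of subsets. With 1 pool per genotype the difference between pools was not tested.

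For Cd4+ against DN Ly49- cells, Gzma was higher in Cd4+ cells by 1.62 in WT and 3.25 in Jα18-/- mice and stood at -1.90 in CD1d-/- mice, whose Cd4+ sum holds 8 cells and whose DN Ly49- sum rests on shallow cells. In the same comparison Prf1 stood at -1.84 in Jα18-/- and 2.39 in CD1d-/- mice, where 1 cell held 83.3% of the Cd4+ UMIs, and Gzmm at -1.03 in WT and 1.49 in Jα18-/- mice.

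For Ly49+ against Ly49- cells, Gzmc stood at 2.13 in WT, -2.39 in Jα18-/- and 2.51 in CD1d-/- mice, and 1 cell held all Gzmc UMIs of the WT and of the Jα18-/- Cd8a+Ly49- sums. For Cd8a+ against Cd8a- cells, Gzmm stood at 1.08 in WT, 2.95 in Jα18-/- and -3.03 in CD1d-/- mice, and its UMIs came from 14, 14 and 6 cells.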

How the results depend on the processing

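The 2 members called for Ly49 were both called under every alternative except the fit with no term for the pool, which called 1 (Gzma, with Gzmb at 1.21, adjusted p = 0.133 in edgeR). Leaving out each pool gave 2 to 3 calls. The added call was Gzmm without the Jα18-/- pool (9.07). There 1 cell held 215 of 252 UMIs of the WT Cd8a+Ly49+ sum and 1 cell 106 of 110 of the CD1d-/- DN Ly49+ sum. The log2 difference of Gzma ran from 1.21 to 4.18 and that of Gzmb from 0.98 to 1.61. The 1.21 came from limma on the mean ln count per cell, which is not the same measure as a fold change of sums. The lowest Gzma value of the other fits was 2.15, with 2 UMIs needed for detection. For Cd8a the count of called members was 2 with limma, with no low-count filter, with cells thinned to 10000 UMIs and with the stated cell filter, each adding Gzma, and 0 with no pool term (Gzmb 1.35) or a detection limit of 2 UMIs (Gzmb 1.26, adjusted p = 0.0525 in edgeR); it was 0 to 2 over the fits without a pool. For Cd4 the stated cell filter gave 1 call, Gzma at 2.98, against 0, in a fit that held no CD1d-/- Cd4+ sum. Past 2-fold for CD1d-/- over WT were 6 of 23 pairs in thinned cells (18.0% of all pairs of a gene and a subset) and 9 of 27 under the stated filter (44.1%), against 15 of 33 (42.2%), and for CD1d-/- over Jα18-/- 5 of 22 in thinned cells (16.9%), against 13 of 32 (38.9%). For Jα18-/- over WT they were 6 of 28 in thinned cells (12.7%), against 7 of 33 (37.5%). Members above 50% of cells in every pool numbered 5 at the cells' own depth and 3 in thinned cells. Cells with a UMI of both Gzma and Gzmb, 47.0% of Jα18-/- and 75.9% of CD1d-/- Cd8a+Ly49+ cells, were 38.5% and 66.0% at 5000 UMIs and 61.4% and 84.96% at 20000 UMIs. Of Jα18-/- Cd8a+Ly49+ cells, 43.3% were high in Gzmb at 10 UMIs, 53.9% at 5 and 29.03% at 20. These limits, the other depths and the restrictions to cells with a Cd3 UMI or low in myeloid UMIs were chosen after seeing the data. The sign of a fold change that neither setting called was opposite in 49 of 420 refits, and no called value changed sign. Over all genes, calls ran from 1 to 49 for Cd8a (5 reported; 20 higher and 29 lower in thinned cells), 15 to 109 for Ly49 (29; 109 with DESeq2), 1 to 9 for Cd4 (5) and 0 to 11 for the interaction (1). The causes of these changes were not tested. No paired analysis was possible because the cell names carry no library number: sums were matched only within a genotype pool, through the pool term of the fit. Shares and levels of Prf1, Gzmc, Gzmm and Gzmk are limited by their few UMIs, and subsets by the depth of their cells.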
